A study of Mus musculus with 22 samples.

Results

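Rpl11, a ribosomal protein, was depleted with a small interfering RNA (siRNA) in the mouse embryonic stem (ES) cell line E14, and messenger RNA was sequenced. The comparison set cells given siRpl11 together with siNT against cells given siNT with siNT. It was chosen by the siRNA names of the libraries and used 7 of the 22 libraries of the series. In the first of 2 tables there were 2 siRpl11 and 2 siNT libraries, and in the second there were 1 siRpl11 and 2 siNT libraries. The labels leave NT unexplained, and siNT is taken as the control. All cells were grown with leukemia inhibitory factor (LIF) on gelatin, were transfected with DharmaFECT and were harvested 3 days later. No allele, strain or drug distinguishes the groups, which share the same cell line and transfection. Whether the replicates were separate cultures is not stated. The p-values therefore cover only the spread among these libraries, which may be technical. The siRpl14 libraries of the first table (2 libraries given siRpl14 with siNT) served as a second point of comparison, because Rpl14 is another protein of the same ribosomal subunit.

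Rpl11 is a protein of the large (60S) ribosomal subunit, where it sits beside the 5S RNA with Rpl5. When ribosome assembly is disturbed, Rpl11 and Rpl5 carrying the 5S RNA are known to block Mdm2, a ubiquitin ligase that sends the p53 protein to destruction, and so let p53 accumulate. Rpl11 is therefore unusual among ribosomal proteins, since its loss both disturbs the ribosome and removes a part of the signal that reports the disturbance. ES cells express the p53 gene Trp53 at a high level, and they can drift from the naive state of the early epiblast toward the primed state of the later one.

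The values were FPKM (fragments scaled to transcript length and library size) for 24819 genes. Fold changes were taken on log2(FPKM + 1) with limma, using all 8 numbered libraries of the first table, for the 12129 genes that reached 1 FPKM in 2 or more of them. A gene was called at an adjusted p under 0.05. Errors of log2 fold changes are standard errors, and the added 1 FPKM understates the change of low genes. The files do not give read depth, which is unknown. Per library, 30.1 to 32.1% of genes were listed at 0 in the first table and 50.5 to 56.2% in the second, where low values are resolved less finely. Across genes, log2 values of replicates correlated at r = 0.977 for siRpl11 and r = 0.977 for siNT in the first table, and at r = 0.806 for siNT in the second. All 11 ES cell markers reached 1 FPKM, with sums of 7338 and 7785 FPKM in siRpl11 against 9164 and 8251 FPKM in siNT. Of 12 markers of fibroblast feeder cells 3 reached 1 FPKM, and none of 4 mesoderm markers did. In bulk RNA, fewer cells of a type and less RNA per cell cannot be told apart.

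The siRNA target was lower in all 3 siRpl11 libraries. Rpl11 stood at 260.1 and 113 FPKM in the siRpl11 libraries, against 829 and 661 FPKM in the siNT libraries. That is 34.9% and 15.2% of the siNT mean, so replicate 2 had the deeper knockdown, and the groups did not overlap. The log2 fold change was -2.10 ± 0.46 (limma adjusted p = 0.00992), and the call was lost without siRpl11 replicate 2 or without siNT replicate 1. In the second table Rpl11 stood at 161 FPKM in the single siRpl11 library, against 907 and 773 FPKM in siNT, or 19.2% of the siNT mean. Rpl14, which was not targeted here, had 1465 and 1447 FPKM in siRpl11 and 1550 and 1417 FPKM in siNT and was not called. Rpl5, the partner of Rpl11 in binding Mdm2, had 948 and 789 FPKM in siRpl11 and 949 and 782 FPKM in siNT. The overlapping values of Rpl5 left Rpl5 uncalled (0.01 ± 0.16, limma adjusted p = 0.979).

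The response of the transcriptome was wide. Of the genes tested, 5377 were called, which is 44.3%: 1938 were higher in siRpl11 (16.0%) and 3439 were lower (28.4%). The change was at least 2-fold for 269 of the higher and 767 of the lower genes. The median log2 fold change of all genes tested was -0.11, and scaling shifts the share of rises among the calls. Calls that were higher made up 36.0% as deposited, 50.01% with median-ratio rescaling and 51.6% with quantile normalization, which moved the median of all genes by 0.10 and 0.12 on the log2 scale. Among the called genes, siRpl11 replicate 2 lay farther from the siNT mean than replicate 1 for 1604 of the higher genes (82.8%) and 2688 of the lower genes (78.2%). This is also the replicate with the deeper knockdown, whose part in the result was not tested. Without siRpl11 replicate 2 there were 510 higher and 1268 lower calls, without siNT replicate 1 there were 636 and 1448, and without siNT replicate 2 there were 1224 and 1748. Whichever of the 8 libraries was left out, 448 of the higher and 1006 of the lower genes kept their call.

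**Figure D1:**
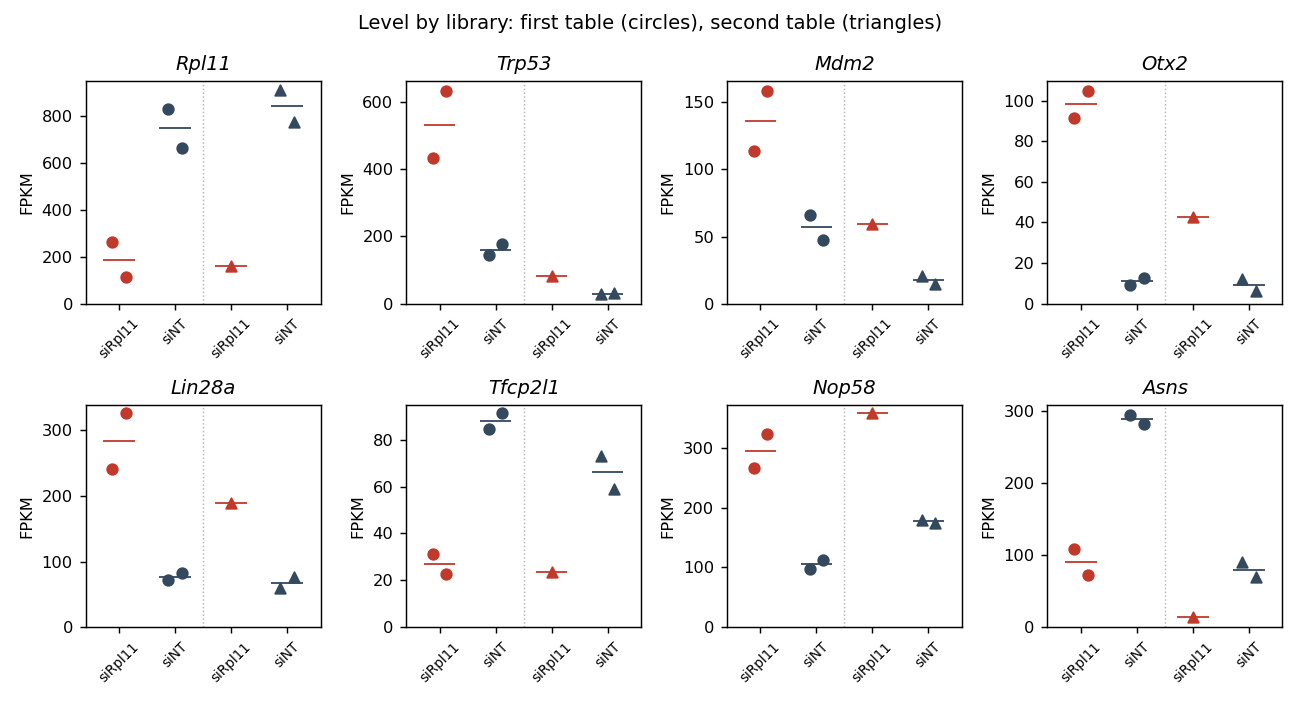
Level in FPKM of 8 genes named in the text, 1 point per library and 1 line per group mean, with siRpl11 left of siNT in the first table (circles) and in the second (triangles). For each of these genes, which were picked by hand, the siRpl11 libraries lie on the same side of the siNT libraries in both tables. Otx2 has 91.8 and 105 FPKM in siRpl11 against 9.17 and 12.6 FPKM in siNT. Other genes named in the text, such as Bysl and Npm1, do not keep their side.

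The largest rises included transcription factors and cell surface genes with low levels in siNT. Tspan8, a membrane protein of the tetraspanin family, had 11.6 and 14.7 FPKM in siRpl11 against 0.804 and 0.505 FPKM in siNT (3.09 ± 0.26, limma adjusted p = 0.0018). In the second table it had 27.7 FPKM in siRpl11 and was listed at 0 in both siNT libraries. Otx2, a homeobox factor of the epiblast and the anterior nervous system, had 91.8 and 105 FPKM in siRpl11 against 9.17 and 12.6 FPKM in siNT (3.08 ± 0.17, limma adjusted p = 0.00112). Both genes were thus almost silent or low in siNT and clearly present in every siRpl11 library. The other 10 of the 12 largest rises, by log2 fold change, were Pim2 (2.80 ± 0.55), Nkx2-9 (2.63 ± 0.36), Sall2 (2.61 ± 0.45), Foxi3 (2.60 ± 0.56), Gadd45g (2.49 ± 0.58), Vrtn (2.38 ± 0.22), Bend3 (2.34 ± 0.22), Lef1 (2.27 ± 0.33), Eprn (2.20 ± 0.27) and Cd80 (2.14 ± 0.40). Pim2 encodes a kinase, Nkx2-9 and Sall2 encode transcription factors, and Lef1 encodes a factor that acts with beta-catenin in the Wnt pathway. Some of these genes were uneven between replicates: Pim2 had 60.3 and 131 FPKM in the siRpl11 libraries, and Gadd45g, a growth arrest gene, had 10.3 and 25.2 FPKM. In the second table Foxi3 and Vrtn were listed at 0 in siRpl11 and in both siNT libraries. Cd80 had 8.68 FPKM there in siRpl11, between 6 and 9.02 FPKM in siNT. The others of the 12 lay above both siNT libraries. The calls of Pim2, Foxi3 and Gadd45g were lost without siRpl11 replicate 2. Those of Foxi3 and Gadd45g were also lost without either siNT library.

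The largest falls included enzymes and secreted factors. Lrrc31 had 3.6 and 1.36 FPKM in siRpl11 against 25.9 and 16.3 FPKM in siNT (-2.71 ± 0.50, limma adjusted p = 0.00587), a call that was lost without siNT replicate 1. Tgm2, a protein crosslinking enzyme, had 1.85 and 0.984 FPKM in siRpl11 against 18.2 and 10.7 FPKM in siNT (-2.65 ± 0.30, limma adjusted p = 0.00239). Inhbb, a subunit of activin B, had 5.35 and 5.55 FPKM in siRpl11 against 30.4 and 36.7 FPKM in siNT (-2.42 ± 0.19, limma adjusted p = 0.0018). The siRpl11 replicates lay close together for Inhbb and apart for Lrrc31. A further siNT library of the first table, unnumbered and outside the fit, had Lrrc31 at 7.62 FPKM and Tgm2 at 6.09 FPKM. Both values lay between the siRpl11 and the numbered siNT libraries. Its Inhbb, at 41.4 FPKM, lay above the numbered siNT libraries. The remaining 9 of the 12 were Kdelr3, a receptor that returns proteins to the endoplasmic reticulum (-2.39 ± 0.19), Nupr1 (-2.34 ± 0.37), Vegfa (-2.20 ± 0.25), Ndrg2 (-2.13 ± 0.41), Rpl11 itself, Cyp2s1 (-2.10 ± 0.33), Gchfr (-2.07 ± 0.22), Slc30a3 (-2.05 ± 0.30) and Pycr1 (-2.04 ± 0.44). In the second table Lrrc31 and Tgm2 were listed at 0 in siRpl11 against 6.61 and 8.29 FPKM and 1.32 and 1.21 FPKM in siNT. Kdelr3 was at 0 in siRpl11 and at 14.6 and 0 FPKM in siNT, and Gchfr was listed at 0 in all of them. The others of the 12 lay below both siNT libraries, Pycr1 by less, with 6.14 FPKM in siRpl11 against 11 and 8.84 FPKM in siNT.

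The p53 gene itself was among the genes that rose. Trp53 had 432 and 631 FPKM in siRpl11 against 143 and 177 FPKM in siNT (1.71 ± 0.26, limma adjusted p = 0.00371), and 81.1 FPKM against 27.9 and 31.4 FPKM in the second table. Mdm2, both a target and an inhibitor of p53, had 114 and 159 FPKM in siRpl11 against 66 and 47.6 FPKM in siNT (1.25 ± 0.28, limma adjusted p = 0.0102). The Mdm2 groups did not overlap, yet the call was lost without siRpl11 replicate 2 or siNT replicate 2. In the second table Mdm2 stood at 59.1 FPKM in siRpl11 against 20.2 and 14.9 FPKM in siNT. Cdkn1a, the p21 gene and the best known p53 target of arrest, was not called: it had 44.5 and 57 FPKM in siRpl11 and 77.2 and 63.5 FPKM in siNT (-0.47 ± 0.28, limma adjusted p = 0.204). The second table put Cdkn1a at 35.9 FPKM in siRpl11, above 17.1 and 24.6 FPKM in siNT. Mdm4, the partner of Mdm2, had 40.4 and 48.2 FPKM in siRpl11 and 63.1 and 63.1 FPKM in siNT (limma adjusted p = 0.0573).

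Lists of p53 targets differed. Of 18 tested targets of cell cycle arrest and feedback, 7 were higher and 2 lower, with a median log2 fold change of 0.41, where 16.0% of all genes were higher and 28.4% lower. Plk2, a kinase, had 62 and 80 FPKM in siRpl11 against 20.3 and 11.5 FPKM in siNT (2.13 ± 0.33, limma adjusted p = 0.00373), and Ptpn14, a phosphatase, rose by 1.40 ± 0.26 (limma adjusted p = 0.00608). Rprm, at 1.97 and 4.03 FPKM in siRpl11 and 1.11 and 1.2 FPKM in siNT, was higher by 0.84 ± 0.29 (limma adjusted p = 0.0465). Ccng2, an atypical cyclin, was lower at 13.2 and 7.09 FPKM in siRpl11 against 32.9 and 29.3 FPKM in siNT. Of 14 tested targets of cell death, 5 were higher and 2 lower, with a median of 0.28. The death receptor gene Fas had 2.51 and 1.94 FPKM in siRpl11 against 0.475 and 0.182 FPKM in siNT (1.28 ± 0.26, limma adjusted p = 0.00739), and Perp, a membrane protein, had 29.4 and 32.2 FPKM against 14.4 and 10.1 FPKM (1.28 ± 0.36, limma adjusted p = 0.0239). Of 20 tested targets of repair and metabolism, only 2 were higher and 8 were lower, with a median of -0.33. The stress cytokine gene Gdf15 had 5.75 and 5.95 FPKM in siRpl11 against 16.1 and 11.4 FPKM in siNT (-1.09 ± 0.21, limma adjusted p = 0.00688), and the glutaminase gene Gls2 had 10.7 and 7.27 FPKM against 22.2 and 21.1 FPKM (-1.21 ± 0.31, limma adjusted p = 0.0163). The higher counts of these 3 lists were 2, 1 and 0 without siRpl11 replicate 2, 3, 1 and 2 without siNT replicate 1, and 2, 0 and 0 without siNT replicate 2. Without siRpl11 replicate 1 they were 7, 3 and 1. The calls of Perp, Gls2, Ccng2 and Rprm were each lost without siRpl11 replicate 2 or either siNT library, that of Fas without siNT replicate 2 and that of Gdf15 without siNT replicate 1. The 8 lower repair and metabolism genes were 3 without siNT replicate 1 and 5 without siRpl11 replicate 2.

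Against siRpl14, part of the p53 targets were lower in siRpl11. The background of that contrast is 1.45% of genes higher and 12% lower in siRpl11. Of the 3 lists, 7 of 18, 6 of 14 and 9 of 20 members were lower in siRpl11 than in siRpl14, and none was higher. Mdm2 had 114 and 159 FPKM in siRpl11 against 244 and 410.3 FPKM in siRpl14 (-1.23 ± 0.28, limma adjusted p = 0.0265). For Perp the values were 29.4 and 32.2 FPKM in siRpl11 and 87.4 and 210.4 FPKM in siRpl14 (-2.10 ± 0.36, limma adjusted p = 0.00966), and for Fas 2.51 and 1.94 FPKM and 7.37 and 12.5 FPKM (-1.73 ± 0.26, limma adjusted p = 0.00628). These 3 p53 targets lay between siNT and siRpl14. Trp53 lay the other way, with 432 and 631 FPKM in siRpl11 and 257 and 396 FPKM in siRpl14, a difference that was not called (0.71 ± 0.26, limma adjusted p = 0.117).

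Genes of the 2-cell embryo (2C-like genes), which a rare fraction of ES cells expresses, were seldom higher in siRpl11. Of 27 tested members 1 was higher and 7 were lower than in siNT, where 16.0% of all genes were higher and 28.4% lower. The list's median log2 fold change of -0.16 turned to 0.08 under quantile normalization. Dux, the factor that drives these genes, was near 0 throughout, with 0.482 and 0.296 FPKM in siRpl11 and 0.368 and 0.202 FPKM in siNT (0.11 ± 0.15, limma adjusted p = 0.56). Zscan4d, which marks these cells, had 7.03 and 8.11 FPKM in siRpl11 against 11.3 and 12.7 FPKM in siNT (-0.60 ± 0.12, limma adjusted p = 0.00655). It kept this call whichever library was left out. The one member that rose was Zfp750, with 6.79 and 8.95 FPKM in siRpl11 against 2.54 and 1.61 FPKM in siNT (1.53 ± 0.29, limma adjusted p = 0.00609), a factor also known from epidermal cells. Among the 7 lower members were Zscan4a (-0.75 ± 0.15), Zscan4f (-0.58 ± 0.14) and Usp17le (-0.77 ± 0.18). The count of 7 was 1 without siRpl11 replicate 2 or siNT replicate 1, 4 without either of the other 2 libraries, 2 under quantile normalization and 4 under median-ratio rescaling. Zscan4 and Usp17-like genes are near-identical copies, so their reads may be split between members.

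The direct test against siRpl14 gave a sharp difference in the same genes. In siRpl11, 25 of the 27 members were lower than in siRpl14, where 12% of all genes were, with a median log2 difference of -1.77 against -0.12 for all genes. Zscan4d had 7.03 and 8.11 FPKM in siRpl11 against 35.7 and 36.2 FPKM in siRpl14 (-2.11 ± 0.12, limma adjusted p = 0.000338), and Dux had 0.482 and 0.296 FPKM against 1.45 and 1.11 FPKM (-0.71 ± 0.15, limma adjusted p = 0.0196). The 2 members not called in this contrast were Zfp750 and Obox6, an oocyte-type homeobox gene. Both were singled out after their values were seen. A further siNT library of the first table, unnumbered and outside the fit, had Zscan4d at 26.1 FPKM. Its Zscan4a stood at 23.9 FPKM, against 25.3 and 20.7 FPKM in siRpl14 and 11.6 and 9.64 FPKM in the numbered siNT libraries. Its Dux (0.306 FPKM) and Usp17le (7.03 FPKM) lay nearer to the numbered siNT libraries than to siRpl14.

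**Figure D2:**
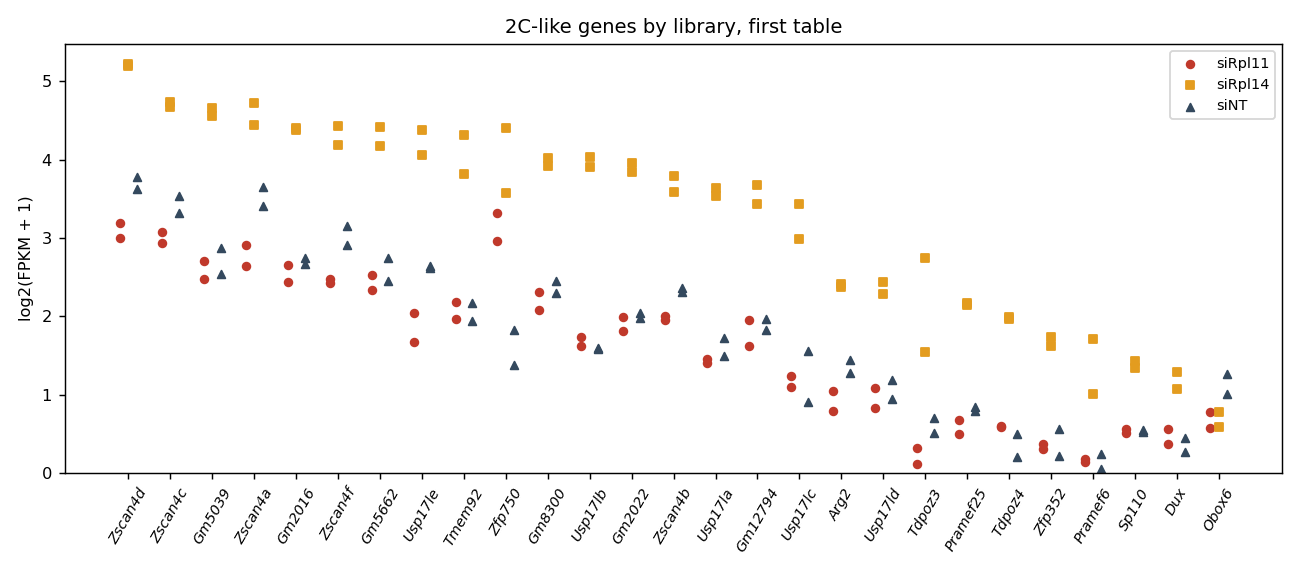
Level as log2(FPKM + 1) of the 27 tested 2C-like genes in the siRpl11, siRpl14 and siNT libraries of the first table, 1 point per library, ordered by the siRpl14 mean. For 25 genes both siRpl11 points were called lower than siRpl14, and Zfp750 is the gene whose siRpl11 points stand well above siNT, at 6.79 and 8.95 FPKM against 2.54 and 1.61 FPKM.

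Genes that build ribosomes rose, although few ribosomal protein genes were called higher with the values as deposited. Ribosome assembly begins in the nucleolus, where RNA polymerase I makes the precursor RNA, small nucleolar ribonucleoproteins (snoRNPs) modify it, and separate sets of factors form the small (40S) and large (60S) subunits. Of 55 tested 60S assembly genes 33 were higher and none lower. Of 44 genes of the small-subunit processome and 40S assembly 31 were higher and 2 lower, of 13 snoRNP core genes 7 were higher and none lower, and of 14 genes of RNA polymerase I and its factors 8 were higher and none lower. Over all genes, 16.0% were higher and 28.4% lower. The list medians were 0.43, 0.47, 0.31 and 0.51 on the log2 scale, against -0.11 for all genes, and they stayed positive under both rescalings.

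Among 60S factors, Nifk, which binds the Ki-67 protein, had 95.3 and 125 FPKM in siRpl11 against 44.6 and 50.8 FPKM in siNT (1.18 ± 0.20, limma adjusted p = 0.00435). Nmd3, the export adaptor of the 60S subunit, had 73.8 and 88 FPKM in siRpl11 against 34.1 and 38 FPKM in siNT (1.14 ± 0.12, limma adjusted p = 0.00226). Mak16 and Tma16 were higher by 0.98 ± 0.18 and 0.91 ± 0.11 on the log2 scale. Npm1, the abundant nucleolar protein nucleophosmin, had 2418 and 2489 FPKM in siRpl11 against 1298 and 1420 FPKM in siNT (0.85 ± 0.12, limma adjusted p = 0.00291). The second table did not show the rise of Npm1, with 2763 FPKM in siRpl11 and 2744 and 2850 FPKM in siNT. Among 40S factors, Rrp12 (1.05 ± 0.11), Bysl (0.97 ± 0.15), Heatr1 (0.85 ± 0.10) and Tsr1 (0.85 ± 0.18) changed most, while Imp3 (-0.46 ± 0.14) and Tbl3 (-0.40 ± 0.13) were the 2 that were lower. Bysl went the other way in the second table, with 648 FPKM in siRpl11 against 1025 and 1137 FPKM in siNT. The calls of Imp3 and Tbl3 were lost under median-ratio rescaling. Of the snoRNP proteins, Nop58 had 266 and 323 FPKM in siRpl11 against 98.2 and 113 FPKM in siNT (1.47 ± 0.16, limma adjusted p = 0.00226), and 359 FPKM against 179.8 and 174 FPKM in the second table. Its partner Nop56 rose by 0.85 ± 0.13 (limma adjusted p = 0.00332). Of RNA polymerase I genes, Cd3eap, a subunit, had 26.9 and 27.9 FPKM in siRpl11 against 11 and 13.8 FPKM in siNT (1.10 ± 0.13, limma adjusted p = 0.00248), and Polr1a, the largest subunit, rose by 1.02 ± 0.21 (limma adjusted p = 0.00757). The calls of Polr1a and Tsr1 were lost without siRpl11 replicate 2 or siNT replicate 1.

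These rises were modest for single genes, and their count depended on the library. With a further, unnumbered siNT library of the first table added to the fit, higher calls were 23 for 60S assembly, 18 for the small-subunit list and 6 for RNA polymerase I. That library had Nop58 at 183.7 FPKM, Npm1 at 1813 FPKM and Nmd3 at 58.3 FPKM. Each lay between the numbered siNT and the siRpl11 libraries. Without siRpl11 replicate 2 the higher calls were 13 for 60S assembly, 15 for the small-subunit list, 3 for snoRNPs and 4 for RNA polymerase I. Without siNT replicate 1 they were 16, 16, 3 and 4, and without siNT replicate 2 they were 32, 22, 3 and 7. The single siRpl11 library of the second table lay above both siNT libraries for 26 of 51 measured 60S genes and below both for 13. For the small-subunit list these were 19 and 9 of 40, for snoRNPs 7 and 4 of 13, and for RNA polymerase I 7 and 3 of 11, where 29.2% of all genes lay above and 44.1% below. Against siRpl14, 4 of the 60S genes were higher in siRpl11, including Npm1 (0.59 ± 0.12, limma adjusted p = 0.0164) and Tma16 (0.58 ± 0.11, limma adjusted p = 0.0154). No gene of the small-subunit list was called against siRpl14. In that contrast 1.45% of all genes were higher in siRpl11 and 12% lower.

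**Figure D3:**
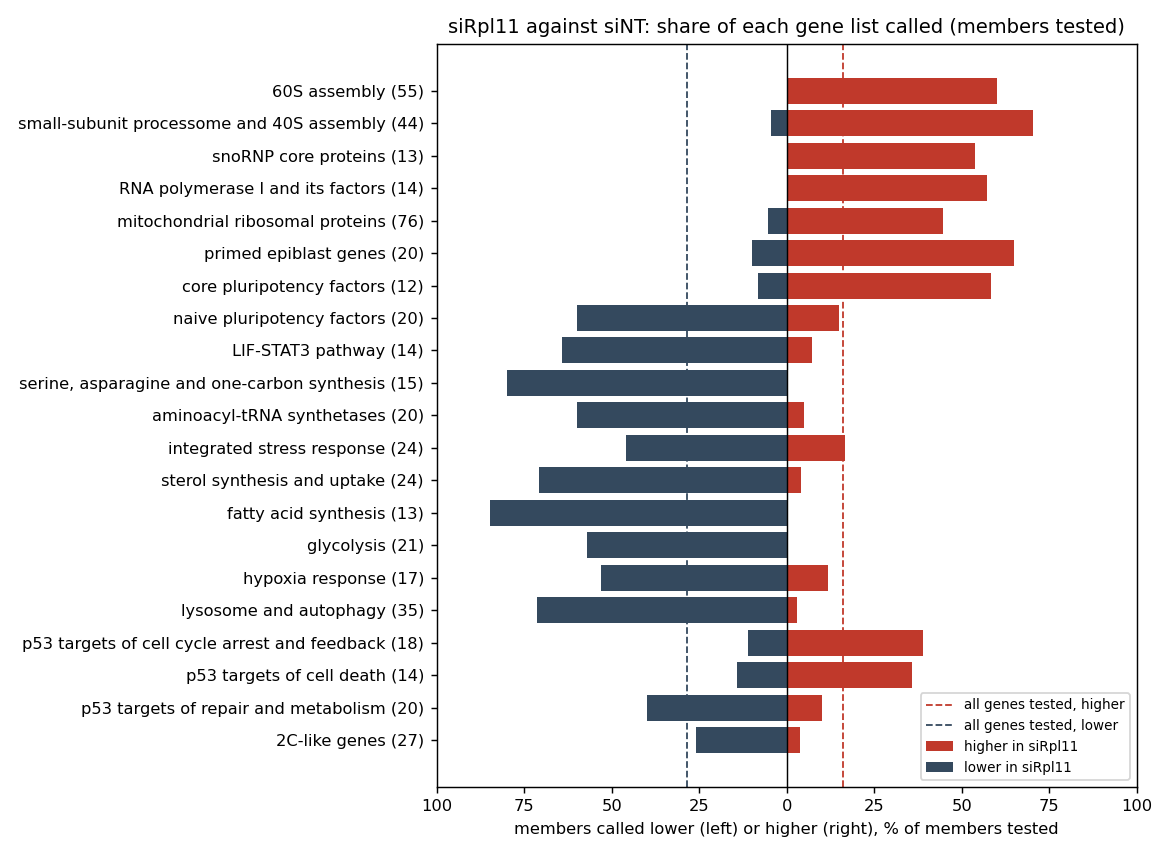
Share of each gene list called lower (left, blue) or higher (right, red) in siRpl11 against siNT, in percent of the members tested (number in brackets), with dashed lines for all genes tested at 28.4% lower and 16.0% higher. Ribosome assembly and primed epiblast lists extend to the right, and amino acid, sterol, fatty acid and glycolysis lists extend to the left.

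Myc proteins bind the E-box letters CACGTG. In windows from 250 bases before to 50 bases after each start (RefSeq, GRCm38.p6), the 6 letters, which read the same on both strands, occurred in 12 of 50 windows of 60S assembly genes (24%) and in 8 of 39 windows of the small-subunit list (20.5%). They occurred in 2 of 21 windows of RNA polymerase I genes (9.52%) and in none of 11 snoRNP windows, against 7.15% of all 32851 windows. A match is a description of the letters and not of binding. The following stretches belong to a 60S factor and an RNA polymerase I subunit named above, with the E-box in capitals.
Nmd3 (chr3:69721911-69721976, plus strand): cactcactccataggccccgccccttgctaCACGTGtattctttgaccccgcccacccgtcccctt
Cd3eap (chr7:19359666-19359731, minus strand): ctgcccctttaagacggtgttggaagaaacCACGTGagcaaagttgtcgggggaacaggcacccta

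Within the Myc family, Mycn rose. It had 127 and 162 FPKM in siRpl11 against 46 and 40.1 FPKM in siNT (1.72 ± 0.16, limma adjusted p = 0.00198), and 45.8 FPKM against 17.5 and 12 FPKM in the second table. Myc itself had 13 and 18.8 FPKM in siRpl11 and 7.35 and 14.8 FPKM in siNT, which overlap (0.54 ± 0.28, limma adjusted p = 0.148). Of 13 tested members of the family and the Max network, 2 were higher and 4 lower, near the shares of 16.0% and 28.4% over all genes. The 4 were 2 without siRpl11 replicate 2 or either siNT library. The lower ones included Mlxipl, the glucose-responsive factor ChREBP (-1.06 ± 0.16), and its relative Mlxip (-0.75 ± 0.12).

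Few ribosomal protein genes were called with the values as deposited, and the count depended on scaling and library. Of 48 large-subunit genes other than Rpl11, 2 were higher and 1 lower, and of 33 small-subunit genes 5 were higher and none lower. Over all genes, 16.0% were higher and 28.4% lower. The higher share of the small-subunit list was near that of all genes, and the other shares were below. Rpl3, a core protein of the 60S subunit, was the one that fell, with 912 and 667 FPKM in siRpl11 against 1860 and 1403 FPKM in siNT (-1.05 ± 0.28, limma adjusted p = 0.019). The second table gave 248 FPKM in siRpl11 against 571 and 465 FPKM in siNT, although the call in the first was lost without siRpl11 replicate 2 or siNT replicate 1. Rpl30 was among those that rose (0.63 ± 0.17). The 2 and 5 higher genes were 7 and 8 when rescaled by median ratios, 7 and 10 when quantile normalized and 6 and 11 without siNT replicate 1, while without siRpl11 replicate 2 no gene of either list was called higher. Over all genes, the 1938 higher calls were 2704, 2552, 636 and 510 in these settings. Without siNT replicate 1 both lists thus gained higher calls while all genes lost them. Without siRpl11 replicate 1 they were 0 and 1, and without siNT replicate 2 they were 1 and 0. Ribosomal protein genes have many near-identical pseudogenes, so their FPKM may be shared between copies.

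Many genes of mitochondrial ribosomes and some of translation factors were higher too. Of 76 mitochondrial ribosomal protein genes 34 were higher and 4 lower, against 16.0% and 28.4% of all genes, with a median of 0.24. The largest rises were of Mrps18c (0.87 ± 0.11), Mrpl52 (0.85 ± 0.10), Mrps18b (0.79 ± 0.14) and Mrpl1 (0.78 ± 0.13). The higher calls were 9 without siRpl11 replicate 2, 14 without siNT replicate 1 and 22 without siNT replicate 2. The respiratory chain, which those ribosomes serve, had 6 higher and 5 lower of 75, both below the shares over all genes, and 12 higher and 2 lower after median-ratio rescaling. Of 42 translation factors 14 were higher and 5 lower. Of 41 translation factors measured in the second table, 13 lay above both siNT libraries and 18 below, near the shares of 29.2% and 44.1% over all genes. Eif1, which helps to select the start codon, had 595 and 757 FPKM in siRpl11 against 311 and 315 FPKM in siNT (1.10 ± 0.19, limma adjusted p = 0.00495). Eif4a2, a helicase of initiation, was lower at 137 and 157 FPKM in siRpl11 against 246 and 219 FPKM in siNT (-0.66 ± 0.11, limma adjusted p = 0.00491). The 14 were 4 without siRpl11 replicate 2 and 6 without siNT replicate 1.

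Genes that make amino acids and charge transfer RNAs fell. Both groups are known targets of ATF4, the factor that the integrated stress response (ISR) turns on. Of 15 tested genes of serine, asparagine and one-carbon synthesis 12 were lower and none higher, with a median log2 fold change of -1.21. Of 20 tested aminoacyl-tRNA synthetase genes 12 were lower and 1 higher, with a median of -0.55. Of 24 ISR genes 11 were lower and 4 higher, with a median of -0.52. The background was 28.4% lower and 16.0% higher.

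Asns, asparagine synthetase, had 108 and 72.5 FPKM in siRpl11 against 295 and 282 FPKM in siNT (-1.69 ± 0.28, limma adjusted p = 0.00449), and 14.8 FPKM against 90.6 and 69.1 FPKM in the second table. Phgdh, the first enzyme of serine synthesis, had 61.3 and 31.4 FPKM in siRpl11 against 149.6 and 149 FPKM in siNT (-1.74 ± 0.48, limma adjusted p = 0.0217). Pycr1, of proline synthesis, had 8.43 and 4.38 FPKM in siRpl11 against 29 and 27.9 FPKM in siNT (-2.04 ± 0.44, limma adjusted p = 0.00943), and Pck2, a mitochondrial enzyme that makes phosphoenolpyruvate, was lower by -1.57 ± 0.37 (limma adjusted p = 0.013). In all of these genes siRpl11 replicate 2 was the lowest of the 4 compared libraries. Of the synthetases, Sars (-1.06 ± 0.30), Cars (-0.99 ± 0.11), Nars (-0.86 ± 0.15) and Yars (-0.83 ± 0.15) fell most. The calls of Phgdh, Pycr1, Pck2 and Sars were lost without siRpl11 replicate 2 or either siNT library. Farsb was the 1 that was higher (0.31 ± 0.09), a call that was lost under quantile normalization and without any one of the 4 compared libraries. The 12 lower synthesis genes were 4 without siRpl11 replicate 2, 4 without siNT replicate 1 and 3 without siNT replicate 2. For the synthetases these counts were 6, 8 and 8. The single siRpl11 library of the second table lay below both siNT libraries for 10 of 13 measured synthesis genes and 14 of 20 synthetases. It lay above both for none of either. Over all genes measured there, 44.1% lay below and 29.2% above.

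Atf4 itself did not follow them. It had 141 and 192 FPKM in siRpl11 and 141 and 169 FPKM in siNT (0.09 ± 0.21, limma adjusted p = 0.742). ISR genes moved both ways. Of 16 ISR genes measured in the second table, 6 lay above both siNT libraries and 8 below. Over all genes measured there, 29.2% lay above and 44.1% below. The median ISR difference in that table was -0.08, against -0.12 over all genes measured. Nupr1, a stress-induced chromatin protein, had 16.4 and 9.99 FPKM in siRpl11 against 72.2 and 66 FPKM in siNT (-2.34 ± 0.37, limma adjusted p = 0.00388) and was listed at 0 in siRpl11 in the second table, against 8.16 and 5.16 FPKM in siNT. Ndrg1 (-1.58 ± 0.39), the amino acid transporter Slc1a4 (-1.10 ± 0.21) and the lipoprotein receptor Vldlr (-1.0 ± 0.18) were lower. In the other direction, the glutamine and alanine transporter Slc38a2 had 178 and 212 FPKM in siRpl11 against 60.5 and 82.3 FPKM in siNT (1.45 ± 0.21, limma adjusted p = 0.00321). Ppp1r15a, which restores translation after stress, had 34.5 and 38 FPKM against 12.2 and 15.9 FPKM (1.32 ± 0.15, limma adjusted p = 0.00239). The arginine and lysine transporter Slc7a3 (0.86 ± 0.12) and Sesn2 (0.74 ± 0.22), which is also a p53 target, were higher too. The calls of Ndrg1 and Sesn2 were lost without siRpl11 replicate 2 or either siNT library. The 11 lower ISR genes were 5 without siRpl11 replicate 2 or siNT replicate 1 and 4 without siNT replicate 2.

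The ATF4-C/EBP composite letters TGATGNAA, read on both strands, occurred in 8 of 22 windows of ISR genes (36.4%), 3 of 15 windows of synthesis genes (20%) and 5 of 12 windows of synthetases (41.7%), against 3.97% of all windows. Of the list members tested, 19 of 24, 14 of 15 and 12 of 20 had a RefSeq window. The following stretches belong to 4 genes named above that were lower in siRpl11, with the composite letters in capitals. In Asns and Pycr1 they lie on the strand of the gene, and in Nupr1 and Pck2 on the other strand.
Asns (chr6:7693210-7693262, minus strand): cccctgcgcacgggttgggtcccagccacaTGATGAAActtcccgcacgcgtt
Pycr1 (chr11:120643814-120643881, minus strand): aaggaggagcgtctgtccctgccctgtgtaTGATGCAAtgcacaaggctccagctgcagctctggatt
Nupr1 (chr7:126625543-126625610, minus strand): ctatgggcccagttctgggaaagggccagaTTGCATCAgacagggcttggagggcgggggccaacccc
Pck2 (chr14:55540133-55540200, plus strand): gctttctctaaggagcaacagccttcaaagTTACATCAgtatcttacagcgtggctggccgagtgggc

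Lipid synthesis genes were lower in siRpl11. Of 24 tested genes of sterol synthesis and uptake 17 were lower and 1 higher, at a median log2 change of -0.61, and of 13 genes of fatty acid synthesis 11 were lower and none higher, with a median of -0.70, where 28.4% of all genes were lower. Insig1, the sterol-regulated anchor of SREBP factors, had 19.8 and 15.9 FPKM in siRpl11 against 53.6 and 55.6 FPKM in siNT (-1.57 ± 0.19, limma adjusted p = 0.00248), and 4.63 FPKM against 38.6 and 30.1 FPKM in the second table. The synthesis enzymes Msmo1 (-1.37 ± 0.19) and Dhcr7 (-1.35 ± 0.28) fell to a like extent, and so did the desaturases Scd1 (-1.38 ± 0.23), Scd2 (-1.22 ± 0.24) and Fads1 (-1.05 ± 0.19) and the acetate enzyme Acss2 (-1.02 ± 0.23). Ebp, an isomerase of the late sterol pathway, was the exception (0.40 ± 0.12, limma adjusted p = 0.0271), and its call was lost without any one of the 4 compared libraries. The second table had 14 of 17 measured sterol genes and 10 of 10 fatty acid genes below both siNT libraries, where 44.1% of all genes lay below. The call of Dhcr7 was lost without siNT replicate 1, that of Scd2 without siNT replicate 2 and that of Acss2 without siRpl11 replicate 2 or either siNT library. Lower sterol genes numbered 11 without siRpl11 replicate 2, and fatty acid genes 5, 7 and 5 without siRpl11 replicate 2, siNT replicate 1 and siNT replicate 2. With the unnumbered siNT library added to the fit, lower sterol genes numbered 15. That library had Insig1 at 32.4 FPKM and Scd1 at 23.9 FPKM, each between the siRpl11 and the numbered siNT libraries. No gene of the sterol list was lower than in siRpl14, and 1 was higher (Ebp, 0.51 ± 0.12, limma adjusted p = 0.0296), where 12% of all genes were lower and 1.45% higher. The sterol response element letters TCACNCCA, on both strands, occurred in 2 of 19 windows of sterol genes (10.5%) and in none of 14 windows of fatty acid genes, against 4.36% of all windows.

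Glycolysis and hypoxia genes were lower in siRpl11, with the largest differences in 1 replicate. Of 21 tested glycolysis genes, 12 were lower and none higher, with the list's median log2 change at -0.69, and all 21 had negative values. Over all genes, 28.4% were lower. Pgm2 had 37.2 and 16.3 FPKM in siRpl11 against 115 and 92.1 FPKM in siNT (-2.01 ± 0.42, limma adjusted p = 0.00834). Hk1, a hexokinase, had 13 and 6.89 FPKM in siRpl11 against 41.6 and 34.7 FPKM in siNT (-1.89 ± 0.35, limma adjusted p = 0.0061), and Pfkp, a phosphofructokinase, had 99.2 and 43.9 FPKM against 245 and 251 FPKM (-1.89 ± 0.46, limma adjusted p = 0.0145). In each of the 3, replicate 2 of siRpl11 was the lower one by a wide gap. The unnumbered siNT library, outside the fit, had Pgm2 at 51.2 FPKM, Hk1 at 21.5 FPKM and Pfkp at 179.8 FPKM. Each value lay between the siRpl11 and the numbered siNT libraries, so the falls are smaller against that library. The calls of the 3 were kept with it added to the fit. The second table had all 19 measured glycolysis genes below both siNT libraries, where 44.1% of all genes lay below. Yet the count of 12 was 2 without siRpl11 replicate 2, 0 without siNT replicate 1, 3 without siNT replicate 2, 17 without siRpl11 replicate 1, 6 after median-ratio rescaling and 5 with no filter on low values. The calls of Hk1 and Pgm2 were lost without siNT replicate 1, and that of Pfkp without siRpl11 replicate 2 or either siNT library. Gapdh, often used as a standard, had 3452 and 2735 FPKM in siRpl11 and 4093 and 3748 FPKM in siNT (limma adjusted p = 0.121).

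Of 17 tested hypoxia response genes 9 were lower and 2 higher, with a median of -1.04, against 28.4% lower and 16.0% higher of all genes. Vegfa, which drives blood vessel growth, had 8.14 and 5.73 FPKM in siRpl11 against 32.6 and 37.4 FPKM in siNT (-2.20 ± 0.25, limma adjusted p = 0.00239), and 1.91 FPKM against 12 and 16.1 FPKM in the second table. Egln1, the oxygen sensor of the pathway, had 8.07 and 5.25 FPKM in siRpl11 against 22.6 and 19.9 FPKM in siNT (-1.56 ± 0.25, limma adjusted p = 0.00388). Hif1a, the factor at its head, was among the 2 higher genes, with 24.7 and 35.8 FPKM in siRpl11 against 16.1 and 19.9 FPKM in siNT (0.70 ± 0.22, limma adjusted p = 0.034). That call was lost without siRpl11 replicate 2 or either siNT library. The 9 lower genes were 5 without siRpl11 replicate 2, 4 without siNT replicate 1 and 5 without siNT replicate 2. With the unnumbered siNT library added to the fit they were 7. That library had Vegfa at 24.6 FPKM and Egln1 at 13.3 FPKM, each between the siRpl11 and the numbered siNT libraries. Its Hif1a, at 25.7 FPKM, lay within the range of the siRpl11 libraries. The core letters ACGTG of the hypoxia response element, on both strands, occurred in 17 of 33 windows of glycolysis genes (51.5%) and 12 of 19 windows of hypoxia genes (63.2%), against 19.6% of all windows; CACGTG contains them.

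Lysosome and autophagy genes were lower while a factor that drives them was higher. Of 35 tested members 25 were lower and 1 higher, with a median of -0.47, against 28.4% lower and 16.0% higher of all genes. The member that rose was Tfe3, a transcription factor of lysosome genes that also takes part in the exit of ES cells from the naive state, with 79.1 and 99.9 FPKM in siRpl11 against 28.9 and 29.7 FPKM in siNT (1.57 ± 0.19, limma adjusted p = 0.00248). Wipi1, of autophagosome formation, had 3.06 and 2.2 FPKM in siRpl11 against 12.7 and 9.07 FPKM in siNT (-1.70 ± 0.22, limma adjusted p = 0.00251). Gabarapl1 (-1.31 ± 0.15), the protease Ctsb (-1.03 ± 0.14) and the cholesterol carrier Npc2 (-0.95 ± 0.16) were the next largest falls. The second table had 20 of 30 measured members below both siNT libraries and 2 above, where 44.1% of all genes lay below and 29.2% above. The 25 were 10 without siRpl11 replicate 2, 11 without either siNT library and 16 after median-ratio rescaling.

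Pluripotency genes shifted in 2 directions, away from the naive set and toward the primed epiblast set. Of 20 tested primed epiblast genes 13 were higher and 2 lower, with a median log2 fold change of 0.96. Of 20 tested naive factors 12 were lower and 3 higher, with a median of -0.52. Of 12 core factors 7 were higher and 1 lower, with a median of 0.46. The shares over all genes were 16.0% higher and 28.4% lower. All 3 medians kept their sign under both rescalings. The second table had 9 of 14 measured primed genes above both siNT libraries and 1 below, and 13 of 18 naive factors lay below and 3 above, where 29.2% of all genes lay above and 44.1% below. The 9 primed genes include Sfrp2, which was called lower in the first table.

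**Figure D4:**
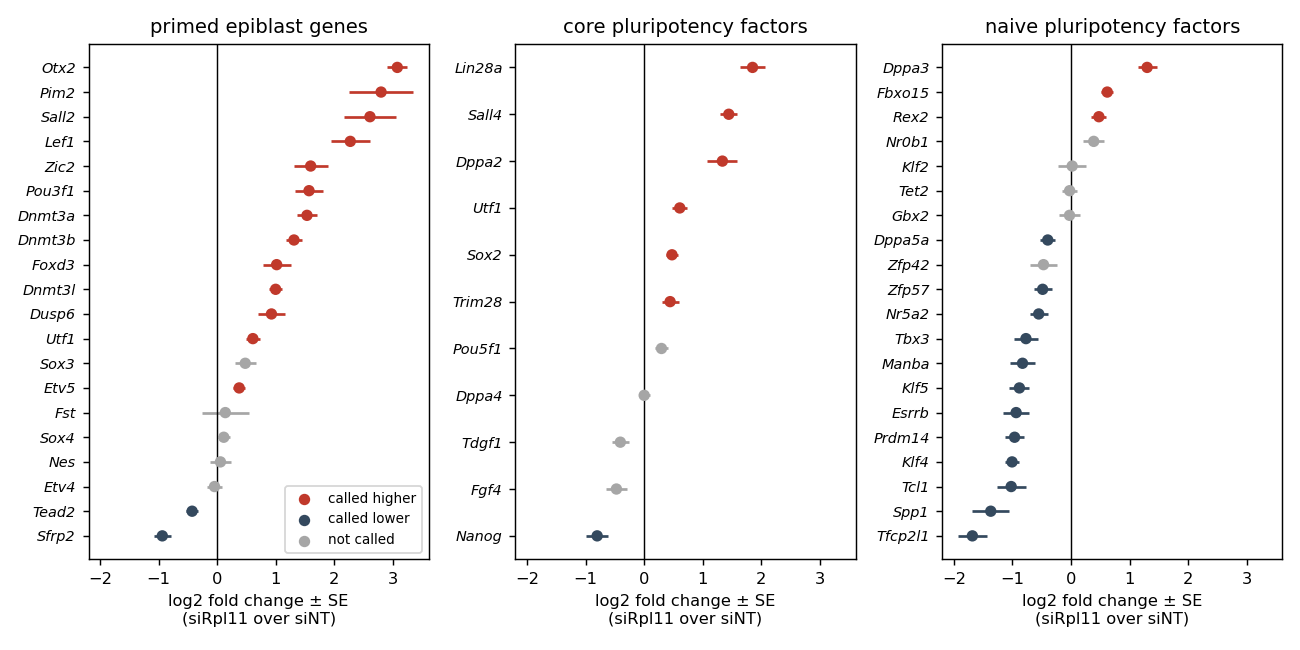
Log2 fold change (point) and standard error (line) of siRpl11 over siNT for tested members of the primed epiblast, core and naive pluripotency lists in the first table (1 core member is not drawn), with genes called higher in red, lower in blue and not called in grey. Otx2 stands at 3.08 and Lin28a at 1.85 at the top of their lists, and Tfcp2l1 at -1.69 at the foot of the naive list.

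Otx2, given above, was the largest change of the primed list, and in the second table it stood at 42.6 FPKM in siRpl11 against 12.1 and 6.22 FPKM in siNT. Lef1 had 21.8 and 29.8 FPKM in siRpl11 against 3.92 and 5.13 FPKM in siNT (2.27 ± 0.33, limma adjusted p = 0.00321), and Sall2 had 14.6 and 29.6 FPKM against 2.33 and 2.85 FPKM (2.61 ± 0.45, limma adjusted p = 0.00487). Dnmt3l, the cofactor of the de novo DNA methyltransferases, had 480 and 501 FPKM in siRpl11 against 252 and 238 FPKM in siNT (1.00 ± 0.11, limma adjusted p = 0.00225). The methyltransferases themselves, Dnmt3a (1.53 ± 0.17, limma adjusted p = 0.00226) and Dnmt3b (1.31 ± 0.13, limma adjusted p = 0.00198), and the POU factor Pou3f1 (1.57 ± 0.24, limma adjusted p = 0.00373) moved the same way; these 3 were picked after their values were seen, as genes that define the primed state. Fgf5, the classic primed marker, stayed under the filter at 0.263 and 0.7 FPKM in siRpl11 and 0.0292 and 0.12 FPKM in siNT. Sfrp2, a Wnt inhibitor, and Tead2 were the 2 that were lower (-0.94 ± 0.14 and -0.43 ± 0.11), and the call of Tead2 was lost without siRpl11 replicate 2 or either siNT library. Sfrp2 went the other way in the second table, with 35.4 FPKM in siRpl11 against 17.5 and 13.2 FPKM in siNT. The 13 higher genes were 8 without siRpl11 replicate 2 and 9 without siNT replicate 1.

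Among naive factors, Tfcp2l1 had 31.4 and 22.6 FPKM in siRpl11 against 84.4 and 91.4 FPKM in siNT (-1.69 ± 0.25, limma adjusted p = 0.00332), and 23.6 FPKM against 73.2 and 59.1 FPKM in the second table. Klf4, a reprogramming factor, had 36 and 40.4 FPKM in siRpl11 against 77.3 and 78 FPKM in siNT (-1.01 ± 0.13, limma adjusted p = 0.00249). Esrrb, an orphan nuclear receptor, had 137 and 117 FPKM in siRpl11 against 241 and 245 FPKM in siNT (-0.94 ± 0.22, limma adjusted p = 0.0121). The secreted protein gene Spp1 (-1.37 ± 0.32) and the kinase coactivator gene Tcl1 (-1.02 ± 0.25) were lower as well. Zfp42 (Rex1), a standard marker of the naive state, was not called, with 382 and 344 FPKM in siRpl11 and 485 and 521 FPKM in siNT (limma adjusted p = 0.122). Dppa3 (Stella) went against the list with 20.8 and 20.9 FPKM in siRpl11 against 9.54 and 6.46 FPKM in siNT (1.30 ± 0.16, limma adjusted p = 0.00249), and so did Fbxo15 (0.62 ± 0.10) and Rex2 (0.48 ± 0.13). The calls of Esrrb and Tcl1 were lost without siRpl11 replicate 2 or either siNT library, and that of Spp1 without siRpl11 replicate 2 or siNT replicate 1; Rex2 was lost without either siRpl11 library or siNT replicate 1. The 12 lower factors were 6 without siRpl11 replicate 2, 5 without siNT replicate 1 and 6 without siNT replicate 2.

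The 3 factors at the centre of pluripotency parted. Pou5f1 (Oct4) had 1088 and 1245 FPKM in siRpl11 and 945 and 950.2 FPKM in siNT (0.30 ± 0.12, limma adjusted p = 0.0722), Sox2 had 294 and 323 FPKM against 224 and 218 FPKM (0.48 ± 0.11, limma adjusted p = 0.0103), and Nanog had 227 and 191 FPKM against 349 and 378 FPKM (-0.80 ± 0.19, limma adjusted p = 0.0124). Pou5f1 was not called. The call of Sox2 was lost without siRpl11 replicate 2 or siNT replicate 1. That of Nanog was lost without siRpl11 replicate 2 or either siNT library. Lin28a, which blocks maturation of the let-7 microRNAs, had 241 and 326 FPKM in siRpl11 against 71.2 and 83.2 FPKM in siNT (1.85 ± 0.22, limma adjusted p = 0.00239), and 189 FPKM against 59.8 and 75.9 FPKM in the second table. Sall4 (1.45 ± 0.15, limma adjusted p = 0.00202) and Dppa2 (1.34 ± 0.26, limma adjusted p = 0.00667) were higher too, although the call of Dppa2 was lost without siNT replicate 1. Higher core factors numbered 3 without siRpl11 replicate 2 and 2 without siNT replicate 1.

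Parts of the signalling pathways that act on these states changed. LIF acts through Jak1 and STAT3, and of 14 tested genes of that pathway 9 were lower and 1 higher, with a median of -0.48, where 28.4% of all genes were lower and 16.0% higher. Jak1 had 6.84 and 6.28 FPKM in siRpl11 against 15.8 and 15.3 FPKM in siNT (-1.13 ± 0.12, limma adjusted p = 0.00213), and Socs3, its induced inhibitor, had 62.3 and 45.6 FPKM against 137 and 113 FPKM (-1.21 ± 0.22, limma adjusted p = 0.00581). Klf4, Tfcp2l1 and Bcl3 (-1.04 ± 0.17) belong to the same list. The 9 lower genes were 4 without siNT replicate 1, and Socs3 was among those lost. Targets and feedback genes of FGF-ERK signalling were 5 higher and 3 lower of 18, with the phosphatase genes Dusp4 (1.40 ± 0.30) and Dusp6 (0.93 ± 0.23) and the inhibitor gene Spry2 (0.99 ± 0.19) up and Ier3 (-1.35 ± 0.41) and Spry4 (-0.62 ± 0.20) down. These 5 were 0 without siNT replicate 1, 1 without siRpl11 replicate 2 and 3 without siRpl11 replicate 1. The 3 lower ones were lost to at most 1 without any one of the 4 compared libraries or after median-ratio rescaling.

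In the Nodal and activin pathway 5 genes were higher and 5 lower of 18, the lower share being that of all genes (28.4%, with 16.0% higher). Among ligands and their inhibitors, Lefty1 had 55.2 and 51.5 FPKM in siRpl11 against 20.7 and 22.3 FPKM in siNT (1.27 ± 0.10, limma adjusted p = 0.0018), while Inhbb, given above, was 1 of the largest falls of the comparison. Among receptors, Acvr1b had 12.8 and 11.7 FPKM in siRpl11 against 26.1 and 26.9 FPKM in siNT (-1.06 ± 0.12, limma adjusted p = 0.00239) and Acvr2a was higher (0.57 ± 0.18). Of the transcription factors, Smad3 was lower (-0.67 ± 0.16). The 5 higher genes were 2 without siNT replicate 1 and 3 without any one of the other 3 libraries, and the 5 lower ones 3 without siNT replicate 1. Acvr2a and Smad3 were among the calls lost without siRpl11 replicate 2 or either siNT library.

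Markers of other fates were called lower more often than higher, and so were all genes tested. Of 4 tested mesendoderm genes none was called. Of 12 trophectoderm and simple keratin genes 1 was higher and 6 lower, and of 15 primitive endoderm genes 2 were lower, both laminins (Lama1, -1.17 ± 0.15, and Lamc1, -0.61 ± 0.12). Of 7 neural genes 1 was higher and 4 lower, and the shares over all genes were 16.0% higher and 28.4% lower. The higher one was Pax6, a homeobox factor of eye and brain, with 4.79 and 6.34 FPKM in siRpl11 against 1.91 and 1.75 FPKM in siNT (1.20 ± 0.20, limma adjusted p = 0.00461), and 25 FPKM against 11.4 and 9.88 FPKM in the second table. Tubb3, a neuronal tubulin, was lower at 29.1 and 23.3 FPKM in siRpl11 against 43.8 and 57.1 FPKM in siNT (-0.92 ± 0.24, limma adjusted p = 0.0176), while the second table had it the other way at 9.34 FPKM in siRpl11 against 6.74 and 2.59 FPKM in siNT. Summed over 5 neural markers, levels were 36.5 and 34.1 FPKM in siRpl11 against 49.5 and 63.5 FPKM in siNT. Summed over 12 feeder markers, they were 8.23 and 8.83 FPKM in siRpl11 against 18.4 and 17.4 FPKM in siNT. Only 1 feeder marker was called, Thy1, with 5.68 and 4.79 FPKM in siRpl11 against 15 and 15.2 FPKM in siNT. Thy1 made up most of each feeder sum. The part of these neural and feeder markers in the other results was not tested. The 4 lower neural genes were 1 without siRpl11 replicate 2 or either siNT library. The keratins Krt8 (-1.07 ± 0.26), Krt18 (-0.82 ± 0.22) and Krt19 (-1.20 ± 0.38) were lower, and the 6 lower genes of their list were 1 without siNT replicate 1, 2 without any one of the other 3 libraries and 2 under quantile normalization.

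Cell cycle genes moved in both directions. Of 36 tested S phase genes 4 were higher and 8 lower, and of 32 mitosis genes 3 were higher and 9 lower, both under the background of 16.0% and 28.4%. Hells, a chromatin remodeler needed for DNA methylation, had 76.1 and 88 FPKM in siRpl11 against 31.5 and 41.1 FPKM in siNT (1.16 ± 0.15, limma adjusted p = 0.00249), and E2f1 had 17.9 and 15.4 FPKM against 32.2 and 31 FPKM (-0.89 ± 0.17, limma adjusted p = 0.0063). Ccnb2, a mitotic cyclin, was lower by -1.0 ± 0.23 (limma adjusted p = 0.0111). The 8 and 9 lower genes were 1 and 1 without siRpl11 replicate 2, 1 and 2 without siNT replicate 1 and 2 and 3 without siNT replicate 2. Median-ratio rescaling left 4 and 7. Ccnb2 was lost without siRpl11 replicate 2 or siNT replicate 1. Proteasome subunit genes were 10 higher and 2 lower of 35, and heat shock chaperones 5 higher and 3 lower of 27. The median log2 fold change of the proteasome list was 0.003, with 18 of 35 genes above 0, so the list as a whole did not rise. Of 34 proteasome genes measured in the second table, 6 lay above both siNT libraries and 18 below. Over all genes measured there, 29.2% lay above and 44.1% below, so that table showed no excess of higher proteasome genes. Among chaperones, Hsp90b1 (-1.0 ± 0.21) and Hspa5 (-0.68 ± 0.12) of the endoplasmic reticulum were lower. The 10 higher proteasome genes were 3 without siRpl11 replicate 2, 4 without siNT replicate 1 and 6 without either other library, and the 5 higher chaperones were 2, 2 and 3. Hsp90b1 was lost without siRpl11 replicate 2 or siNT replicate 2. Of 40 clustered histone genes 2 were higher and 7 lower, among them Hist1h1c with 9.07 and 10.3 FPKM in siRpl11 against 30 and 22.2 FPKM in siNT (-1.33 ± 0.22, limma adjusted p = 0.0045). Interferon response genes (2 higher and 3 lower of 12) and germline genes (4 higher and 3 lower of 16) moved both ways, with Hormad1, a meiotic gene, at 6.44 and 4.3 FPKM in siRpl11 against 1.47 and 0.915 FPKM in siNT (1.53 ± 0.27, limma adjusted p = 0.00511). Without any one of the 4 compared libraries, histone genes numbered 0 to 1 higher and 3 to 5 lower, interferon genes 0 to 1 higher and 1 to 2 lower, and germline genes 2 to 5 higher and 1 to 2 lower.

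The direct contrast with siRpl14 compares the 2 knockdowns at the unlike depths given above. In siRpl11, 176 genes were higher (1.45%) and 1452 lower (12%) than in siRpl14. Beside the 2C-like genes and p53 targets, 4 primed epiblast genes were higher in siRpl11 and 1 was lower. Otx2 had 91.8 and 105 FPKM in siRpl11 against 43.9 and 52.2 FPKM in siRpl14 (1.02 ± 0.17, limma adjusted p = 0.00877), and Lef1 had 21.8 and 29.8 FPKM against 6.31 and 14.3 FPKM (1.33 ± 0.33, limma adjusted p = 0.0374). Lin28a (0.88 ± 0.22, limma adjusted p = 0.0349) and Pax6 (1.28 ± 0.20, limma adjusted p = 0.00731) were also higher in siRpl11 than in siRpl14. No difference was called for Asns (-0.53 ± 0.28, limma adjusted p = 0.255), Insig1 (0.11 ± 0.19, limma adjusted p = 0.742), Vegfa (-0.08 ± 0.25, limma adjusted p = 0.858), Tfcp2l1 (-0.71 ± 0.25, limma adjusted p = 0.101) or Nop58 (0.53 ± 0.16, limma adjusted p = 0.0661). No gene of the glycolysis, hypoxia or serine synthesis lists was called either way in this contrast. A p that misses the threshold does not show that the knockdowns act alike. The 1628 calls were 388 without siRpl11 replicate 2, 379 without siRpl14 replicate 2, 821 without siRpl11 replicate 1 and 1065 without siRpl14 replicate 1.

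The second table gave a check with a single siRpl11 library. Of the 1938 genes called higher, 1420 were measured there with a mean of at least 5 FPKM, and the siRpl11 library lay above both siNT libraries for 823 (58.0%) and below both for 242 (17.0%). Of the 3439 called lower, 1304 were measured, 930 (71.3%) lay below and 122 (9.36%) above. Over all 6372 tested genes measured there, 29.2% lay above and 44.1% below. Among genes called at 2-fold or more these shares were 123 of 171 (71.9%) for rises and 206 of 257 (80.2%) for falls. Taken alone, the siRpl11 library was at least 2-fold above siNT for 432 of 6914 measured genes (6.25%) and at least 2-fold below for 993 (14.4%). A limma fit of that table, in which the single library is assumed to vary like the other groups, called 3 genes higher and 10 lower of 13497, with 1321 at an unadjusted p under 0.05. Log2 differences of the tables correlated at r = 0.444 across the 6372 genes, which are not independent replicates.

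**Figure D5:**
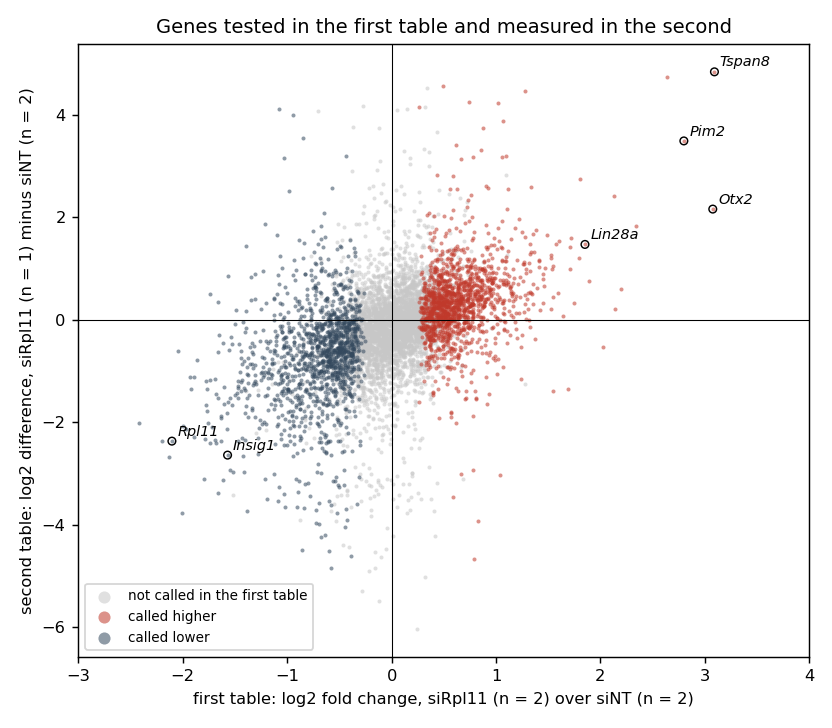
Log2 fold change of siRpl11 over siNT in the first table (x axis) against the log2 difference of the single siRpl11 library from the siNT mean in the second (y axis), 1 point for each of the 6372 genes tested in the first and measured in the second, with called genes in red and blue. The labelled genes, Tspan8, Otx2, Pim2 and Lin28a at the upper right and Rpl11 and Insig1 at the lower left, were picked by hand and do not stand for all genes. Of measured genes called higher, 17.0% lay below both siNT libraries in the second table, and of those called lower 9.36% lay above both.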

How the data were processed

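FPKM for 22 libraries in 2 tables were made by the authors with STAR and Cuffnorm on mm9, per the submitters' processing notes; for their versions, the annotation and the strand setting: not given in the sources used here. Libraries were made with a stranded mRNA kit, per the labels' protocols. Tables were analysed apart, all columns matched a sample, and depth is unknown, so no counting error can be given. FPKM were taken to log2(FPKM + 1) and fitted with limma 3.58.1 (R 4.3.3, statmod 1.5.0; trended, robust), over the 8 numbered libraries of the first table, for genes that reached 1 FPKM in 2 or more libraries, with Benjamini-Hochberg adjustment over all genes tested. The fit was tested on simulated data. Another pseudocount, filters, scalings, a replicate block and leaving out each library were tried.

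Genes named are the siRNA targets, a list of key genes, the 12 largest rises and 12 largest falls among calls with at least 5 FPKM in the higher group and no overlap, up to 4 called members per direction of each list, and uncalled members of short lists or that define a list. Members and lists were chosen with earlier results of these data known. Promoter windows came from RefSeq (GRCm38.p6) and were matched by symbol; no mm9 coordinates are given. A few genes that this rule names are not reported here.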

Additional observations from a re-analysis of the deposited data

How the results depend on the processing

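Leaving out 1 library at a time gave 510 to 2070 genes higher in siRpl11 than siNT (1938 with all) and 1268 to 3523 lower (3439 with all), and 379 to 1380 genes called against siRpl14 (1628 with all). A filter of 5 FPKM gave 2258 lower genes and 979 calls against siRpl14, and quantile normalization gave 993 of the last. With replicate number as a block there were 1701 higher and 3060 lower genes and 1090 calls against siRpl14; replicate differences correlated at 0.211 between siRpl11 and siNT, 0.466 between siRpl11 and siRpl14, 0.169 between siNT and siRpl14, and -0.451 to -0.222 between each of these and siRpl14+siRpl11. With 2 libraries a group and nothing in the labels on shared cultures, the numbers were not taken as pairs. A crossed block, chosen after seeing the data, gave 2766 higher, 4360 lower and 3470 calls against siRpl14. In the second table, the 13 calls of the limma fit were 45 with a pseudocount of 0.1 FPKM, 37 with no filter on low values and 3 to 5 without 1 siNT library. The 432 genes at least 2-fold higher there were 1337 with no filter, 179 at 3-fold, 126 at a mean of at least 20 FPKM and 515 to 679 without 1 siNT library; the 993 lower were 2044, 427, 254 and 1062 to 1083. Log2 fold changes turned sign for 3 genes that were not called: Rpl14 (0.094 after median-ratio rescaling, 0.15 with the unnumbered siNT library added, and -0.090 to 0.039 without 1 library), Rpl5 (-0.13 to 0.14 without 1 library) and Atf4 (-0.13 to 0.31 without 1 library). Over all named genes and alternatives, 3681 values kept their direction and side of the threshold, 433 lost the call, 20 gained it and 7 turned sign. The cause was not tested. With 2 libraries a group and unknown depth, low genes are the least certain.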
